A study of Mus musculus with 9 samples.

Results

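The hearts of 3 wild-type (WT) mice, of 9 hearts in the series, are described here by the array signal of their genes, the member that led within each gene family, and the spread between the 3 animals. They were chosen by their genotype label alone. The series measured whole hearts of male FVB mice aged 15 weeks on an Affymetrix mouse genome array, with 1 array per heart. The other 6 hearts came from 3 GlycoLo mice, which express a kinase-deficient phosphofructokinase 2 in the heart, and 3 GlycoHi mice, which express a phosphatase-deficient form of that enzyme. Their levels are not set against WT here, and only the spread within each of these groups is used, after the WT results. The labels name the heart as the tissue and no chamber, and they give no treatment other than genotype.

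The adult heart contracts without pause, and its muscle cells are filled with sarcomeres, with stores that release and take up calcium at each beat, and with mitochondria. Most proteins of these systems come in families whose members differ between atrium and ventricle, between heart and skeletal muscle, or between the fetal and the adult heart. The mitochondria burn mainly fatty acids, with lactate, glucose and ketone bodies beside them, and glycolysis in the cytosol feeds them pyruvate.

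The values are log2 array signals, and 45037 probe sets that are not array controls were ranked by their mean over the 3 WT hearts. The authors' table pairs 19760 of them (43.9%) with 1 gene symbol, and each such symbol has 1 listed probe set. Array medians were 4.76, 4.79 and 4.79 in WT 1, WT 2 and WT 3, and pairs of arrays correlated across all probe sets with a Pearson r of 0.996 to 0.997. Probe sets for the 3′ end of actin exceeded those for the 5′ end by 0.92, 0.92 and 1.00, and those for Gapdh differed by -0.07, 0.01 and -0.04. The Y-linked gene Ddx3y stood at 8.61, 8.74 and 8.66, while Xist, the RNA of the inactive X chromosome, stood at 5.53, 5.49 and 5.46, which is the pattern of the male label. Uty and Kdm5d, also Y-linked, lay between 6.10 and 6.83, but the listed probe set of Eif2s3y lay between 2.67 and 2.84.

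A level of background was taken from genes that other organs express and the heart is not known for, such as pancreatic, retinal and testicular genes. Of 40 such genes 39 were measured, with a median of 3.51 and a highest mean of 6.95 for Ins2, the insulin gene. The 95th percentile of their means, 5.79, is called background from here on. It was exceeded by 16468 of the 45037 probe sets (36.6%). A probe set at background does not show that a gene is silent, because probe sets bind their targets with different strength. Probe sets of 1 gene differed in globin, the oxygen carrier of blood, where the probe set listed for Hba-a1 alone averaged 3.34, and the probe set shared by Hba-a1 and Hba-a2 averaged 13.76. Of 541 pairs of a gene's own probe set and one it shares with another gene, 300 lay 1 log2 unit or more apart. Orders between genes below are therefore orders of array signal, and no fold between genes is given.

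The brightest named genes of the WT heart were those of the sarcomere, of the calcium pump's inhibitor and of the mitochondrion. Myl2, the ventricular regulatory light chain of myosin, led the named probe sets with 14.32, 14.34 and 14.31 in WT 1, WT 2 and WT 3, and ranked 2 on the array. Actc1, cardiac alpha-actin, followed with 14.28, 14.29 and 14.30 (rank 5). Both lay within a few hundredths of a log2 unit in all 3 hearts. Behind them stood ND5, a mitochondrially encoded subunit of respiratory complex I (14.00 ± 0.035, SD, n = 3), cardiac troponin I (Tnni3, 13.79 ± 0.027) and phospholamban (Pln, 13.78 ± 0.0076), the small inhibitor of the calcium pump of the sarcoplasmic reticulum. Nppa, which encodes atrial natriuretic peptide, a hormone that lowers blood volume and pressure, had 13.50, 13.91 and 13.84. Its SD of 0.22 was the widest among the 30 brightest named genes.

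Among those 30 genes, 12 belonged to the respiratory chain, TCA cycle or fatty acid oxidation lists. Among these were Atp5b, Atp5g3 and Atp5h of ATP synthase, Cox4i1, Cox5a and Cox8b of cytochrome c oxidase, Ndufa1 and Ndufa4, Sdhb, the citrate cycle enzyme Mdh2, and Acadm, the dehydrogenase of medium-chain fatty acids. ATP synthase subunits Atp5d and Atp5f1 were among the 30 as well. Further muscle genes were Tnnc1, the calcium sensor of the thin filament (13.67, 13.68 and 13.66), Myl3, Csrp3, which encodes muscle LIM protein, Ankrd1, a stretch-responsive nuclear and sarcomeric protein, and Ckmt2, the mitochondrial creatine kinase of muscle (13.69, 13.65 and 13.65). Others were Eno3 and Aldoa of glycolysis, Rps29 of the ribosome, Nme2, a nucleoside diphosphate kinase, and Fth1, the iron store ferritin. The lowest of the 30, Ndufa4, averaged 13.00, and Lpl, the lipase that frees fatty acids from lipoproteins, came next with 12.995. Only 31 of the 100 brightest probe sets of the array have 1 symbol, so these genes are the brightest of the named ones and not of the array.

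The base sequence TATAAA, a common form of the TATA box, was searched on the sense strand of RefSeq promoters (assembly GRCm38.p6, 250 bases before to 50 after each annotated start, any start of a gene). Promoters with it were 4 of the 25 promoters found for the 30 brightest named genes, those of Actc1, Pln, Nppa and Cox8b. A match anywhere in the window was counted, and that of Actc1 lies after the annotated start, at base 34. It occurred in 11 of the 100 brightest genes with a promoter, in 8.67% of the 300 brightest, in 8.59% of the 8647 genes at or below background, in 7.44% of the 13970 named genes of the array with a promoter, and in 9.77% of all 27025 genes with a promoter in the RefSeq table used. The core of the Nppa promoter is shown because Nppa is the bright gene that varied most between the hearts. The window is chr4:148000662-148000731 on the plus strand, and capitals mark the match, which begins 9 bases before the annotated start.
Nppa: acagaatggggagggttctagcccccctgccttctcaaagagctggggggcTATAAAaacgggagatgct

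The contractile families had 46 measured members, of which 30 were above background (36.6% of all probe sets were), and in 9 of 9 families the lowest heart of the leading member lay above the highest heart of the next. Myosin regulatory and essential light chains ran in the order Myl2, Myl3, Myl4, Myl7 and Myl1. Myl3, the ventricular essential chain, had 13.44, 13.38 and 13.38. The atrial chains Myl4 (11.97, 12.64 and 12.63) and Myl7 (11.85, 12.54 and 12.50) overlapped each other and were both low in WT 1. Actc1 led the actins before Acta1, the skeletal alpha-actin that is also a gene of the fetal and loaded heart (12.23, 12.18 and 12.02), and cytoplasmic Actg1 (11.50, 11.57 and 11.59). Acta2, the smooth muscle actin, was at background with 4.06, 4.45 and 4.57.

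In the thin filament and the thick filament's binding proteins the cardiac member led the troponins and myosin-binding protein C, while the tropomyosins ran otherwise. Troponin I was bright for Tnni3 (13.82, 13.77 and 13.79), with the slow skeletal Tnni1 (3.95 to 4.65) and the fast skeletal Tnni2 (3.67 to 3.88) at background. Troponin C was split the same way between Tnnc1 and Tnnc2, the fast skeletal form (3.47 to 3.61). Cardiac troponin T, Tnnt2, led with 8.66, 8.40 and 8.49 over slow skeletal Tnnt1 (7.18, 7.25 and 7.19). Mybpc3, cardiac myosin-binding protein C and a frequent site of cardiomyopathy mutations in humans, had 12.73, 12.70 and 12.62, and its atrial relative Mybphl had 8.61, 9.49 and 9.39, lowest in WT 1. Actn2, the alpha-actinin of the Z-disc, had 12.50, 12.44 and 12.42 before Actn4 at 9.12 ± 0.08. The tropomyosins were led by the listed probe set of Tpm4 (9.76 ± 0.03) before that of Tpm1 (8.37 ± 0.33), the striated muscle gene. Titin, the giant spring of the sarcomere, was read at 4.27, 4.61 and 4.58 by its listed probe set, at background. A probe set listed for titin and a predicted gene had 8.80, 8.72 and 8.68, above background.

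In the myosin heavy chains the fetal and slow gene gave more array signal than the gene of the adult mouse ventricle. Myh7, the slow beta chain, had 10.64, 11.77 and 10.65, against 10.22, 10.37 and 10.16 for Myh6, the fast alpha chain. WT 2 alone was high for the listed probe set of Myh7, and the lowest Myh7 heart still lay above the highest Myh6 heart. A probe set listed for both genes had 10.22, 10.28 and 10.06 and was not high in WT 2 alone. Which chain has more RNA was not measured. Myh10 (8.77 ± 0.09) and Myh11 (8.50 ± 0.19), of non-muscle cells and smooth muscle, overlapped, Myh7b had 7.25, 7.25 and 7.16, and the skeletal chains Myh1, Myh2 and Myh4 lay between 2.27 and 3.68.

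The myosin genes Myh6, Myh7 and Myh7b each hold a muscle microRNA inside their transcript, and these are shown because the host genes are the family whose order stands out. The array does not measure them. Mature sequences are from RefSeq (GRCm38.p6), at chr14:54949072-54949093 on the minus strand (within Myh6), chr14:54975710-54975731 on the minus strand (within Myh7) and chr2:155622893-155622913 on the plus strand (within Myh7b), with the seed, bases 2 to 8, in capitals. The seed is the same in miR-208a-3p and miR-208b-3p, and that of miR-499-5p differs in its last base.
miR-208a-3p: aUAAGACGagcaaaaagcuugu
miR-208b-3p: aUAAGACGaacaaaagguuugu
miR-499-5p: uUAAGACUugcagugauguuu

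The promoter cores of both cardiac myosins are set side by side for the same reason. Myh6 holds TATAAA at its annotated start, in capitals (chr14:54966598-54966667, minus strand). Myh7 has 2 annotated starts and no TATAAA in either 300-base promoter, and the core of the downstream start is given (chr14:54994540-54994609, minus strand). A missing match says only that these letters are not in the window.
Myh6: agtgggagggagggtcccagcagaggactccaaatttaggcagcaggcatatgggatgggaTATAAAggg
Myh7: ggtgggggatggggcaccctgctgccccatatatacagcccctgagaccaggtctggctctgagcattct

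**Figure D1:**
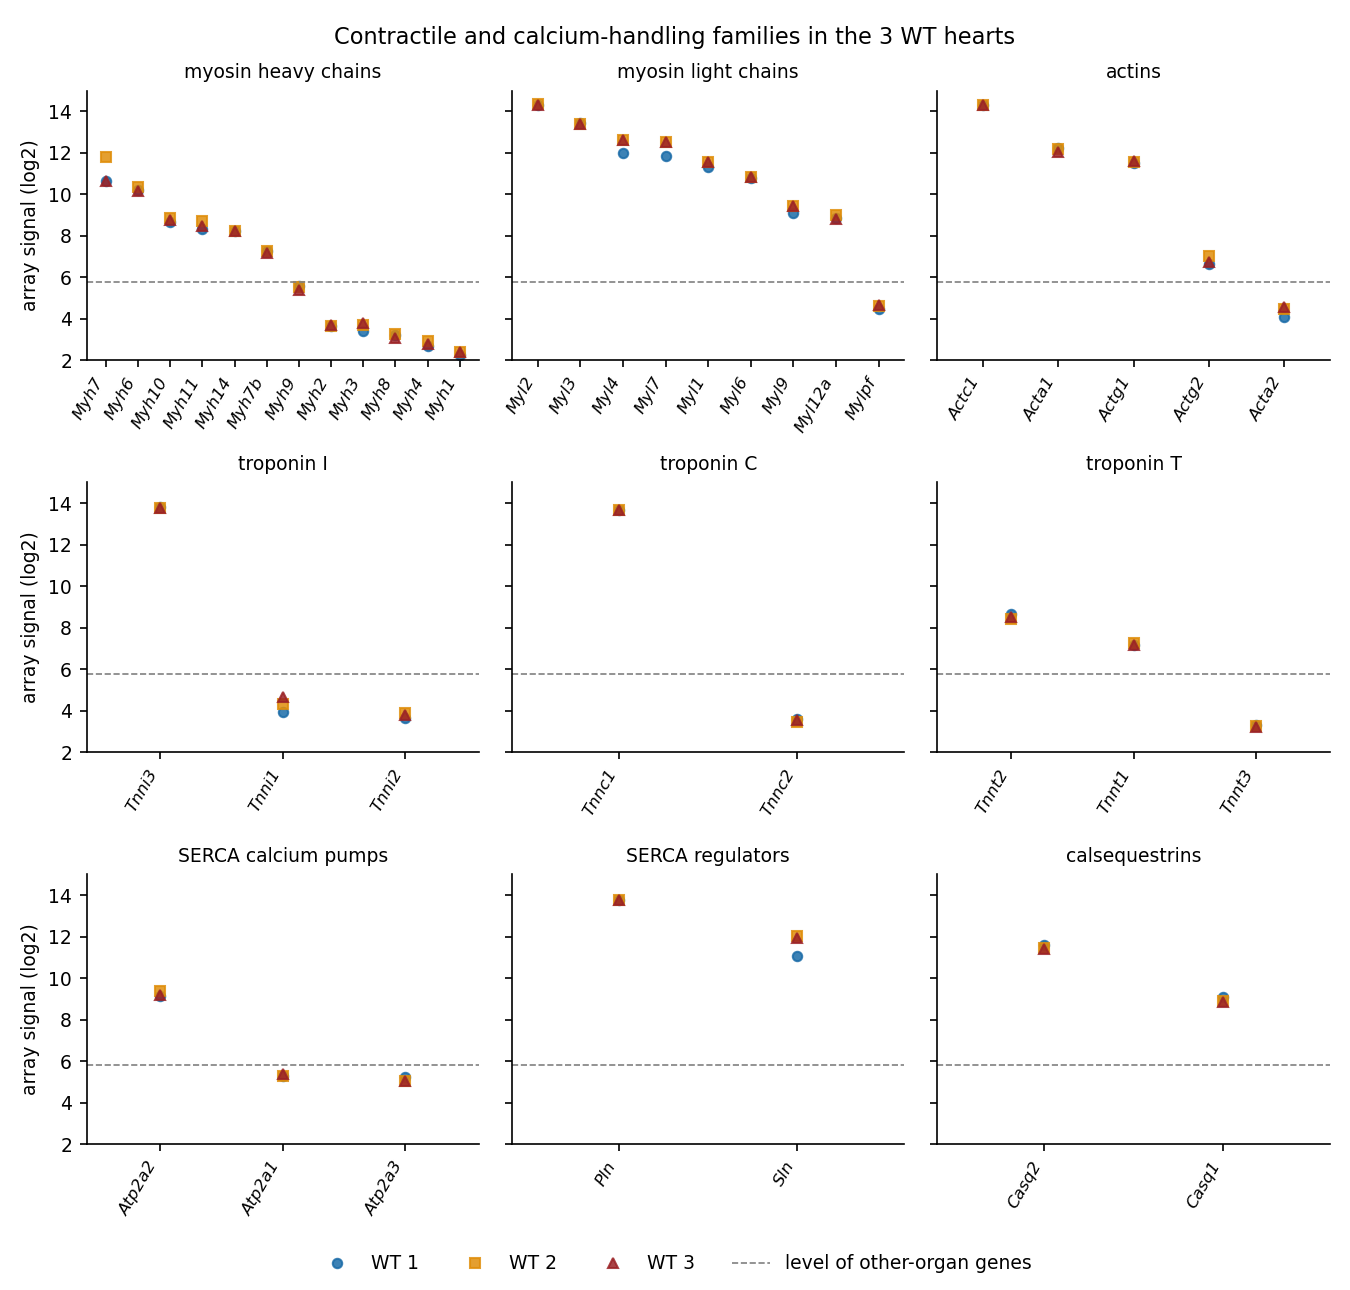
Array signal (log2) of every measured member of 9 contractile and calcium-handling families in the 3 WT hearts, with each heart as its own symbol and the background level of 5.79 as a dashed line. Tnni3 and Tnnc1 stand alone above background, Myh7 is high in WT 2 only, and Myl4, Myl7 and Sln are low in WT 1.

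Calcium handling was led by phospholamban and by the cardiac members of the pump and buffer families. Of 20 measured members 10 were above background (36.6% of all probe sets were). Atp2a2, the cardiac calcium pump, had 9.13, 9.37 and 9.18, and its relatives Atp2a1 of fast skeletal muscle and Atp2a3 were at background (5.06 to 5.39). Sarcolipin (Sln), which inhibits the pump mainly in atria, had 11.07 in WT 1 and 12.02 and 11.93 in WT 2 and WT 3. Casq2, the cardiac calcium buffer of the store, had 11.61, 11.47 and 11.42, above Casq1 at 8.95 ± 0.13. The exchanger Slc8a1, which carries calcium out of the cell, had 8.06, 7.85 and 7.68 with both relatives at background. Among the kinases that calcium-calmodulin activates, Camk2g led (7.80 ± 0.15), and Camk2d, the isoform best known in heart, was read at background (5.20 ± 0.21). The ryanodine receptors, the release channels, were all at background, with Ryr2 highest at 5.76, 5.64 and 5.62. The receptors Itpr2 (7.48 ± 0.14) and Itpr1 (7.37 ± 0.04) overlapped.

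Channels and junctions were of middle signal, and 19 of 39 measured members were above background (36.6% of all probe sets were). Cacna1c, the pore of the L-type calcium channel that triggers release, had 8.51, 8.33 and 8.16, lowest in WT 3. Potassium channels were led, by their own probe sets, by Kcnh2 (9.13 ± 0.09) and Kcnd2 (8.73 ± 0.03), which carry a delayed rectifier and the transient outward current of the mouse ventricle, while Kcna5 differed between hearts with 8.02, 7.54 and 8.54. Kcnj8 (8.53 ± 0.11), a pore of ATP-sensitive channels in vascular cells, led the inward rectifiers before Kcnj5 (8.33 ± 0.04), and Kcnj2 was read at background (2.85 ± 0.11). Gja1, the connexin of the ventricular gap junction, had 9.28, 9.46 and 9.31 before Gjc1 at 8.78 ± 0.05, and Gja5 of atrium and conduction system was at background. The beta subunits of the sodium pump showed Atp1b1 (10.83 ± 0.05) over Atp1b3 (9.75 ± 0.01).

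In the energy families the leader's lowest heart lay above the next member's highest heart in 20 of 20 cases, against 63 of 68 over all families. Of 62 members measured 39 were above background (36.6% of all probe sets were). Cytochrome c oxidase used the heart and muscle subunits in front: Cox6a2 (11.42, 11.43 and 11.48) over Cox6a1 (9.99, 9.92 and 10.05), Cox7a1 (12.93, 12.92 and 12.87) over Cox7a2 (12.84, 12.74 and 12.74), and Cox8b (13.03, 12.99 and 12.98) over Cox8a (10.38, 10.38 and 10.39). Cox4i1 was bright at 13.53 ± 0.03, and Cox4i2, the lung and low-oxygen form, was at background. Ckmt2 led the creatine kinases before Ckb (8.70 ± 0.05), with the listed probe set of Ckm, the cytosolic muscle enzyme, at 6.57 ± 0.08.

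The muscle isoforms led the listed probe sets of glucose uptake and glycolysis. Slc2a4, the insulin-dependent glucose transporter, had 9.41, 9.50 and 9.38, above Slc2a8 (7.61 ± 0.01) and the basal transporter Slc2a1 (7.63, 7.36 and 7.32), which overlapped. Hk2, the hexokinase of insulin-sensitive tissue, had 11.05, 11.05 and 11.08, above the listed probe set of Hk1 at 6.31 ± 0.01. A probe set listed for Hk1 together with the ribosomal gene Rpl17, its pseudogenes and a predicted gene had 11.78, 11.78 and 11.72, above Hk2, and which of these genes it reads was not measured. Pfkm, the muscle phosphofructokinase, had 12.11, 12.00 and 11.98, and Pfkp and Pfkl of platelet and liver were at background. The same held for Aldoa (13.06, 13.04 and 12.95), the muscle mutase Pgam2 (12.58 ± 0.03) before Pgam1 (8.72 ± 0.02), and Eno3 (13.20, 13.11 and 13.10) before Eno1 (9.78 ± 0.04).

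At the exit of glycolysis, Ldhb, the heart form of lactate dehydrogenase, had 12.94, 12.82 and 12.84, above Ldha at 11.90, 11.78 and 11.84. Pdk4, the kinase that shuts pyruvate dehydrogenase during fasting, had 11.99, 11.83 and 11.51, lowest in WT 3, while Pdk2 (8.42 ± 0.01) and Pdk1 (8.41 ± 0.07) overlapped. Pygb (11.74 ± 0.02), named for brain, stood above the muscle phosphorylase Pygm (10.62 ± 0.07) in glycogen breakdown. Phosphofructokinase 2, the enzyme that the other groups of the series carry in mutant form, has 4 genes. Of these only Pfkfb1, the liver isoform, was above background, with 7.97, 7.74 and 7.95. Pfkfb2, Pfkfb3 and Pfkfb4 lay between 4.82 and 5.69, at background. The listed glycogen synthases and monocarboxylate transporters did not exceed background either.

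**Figure D2:**
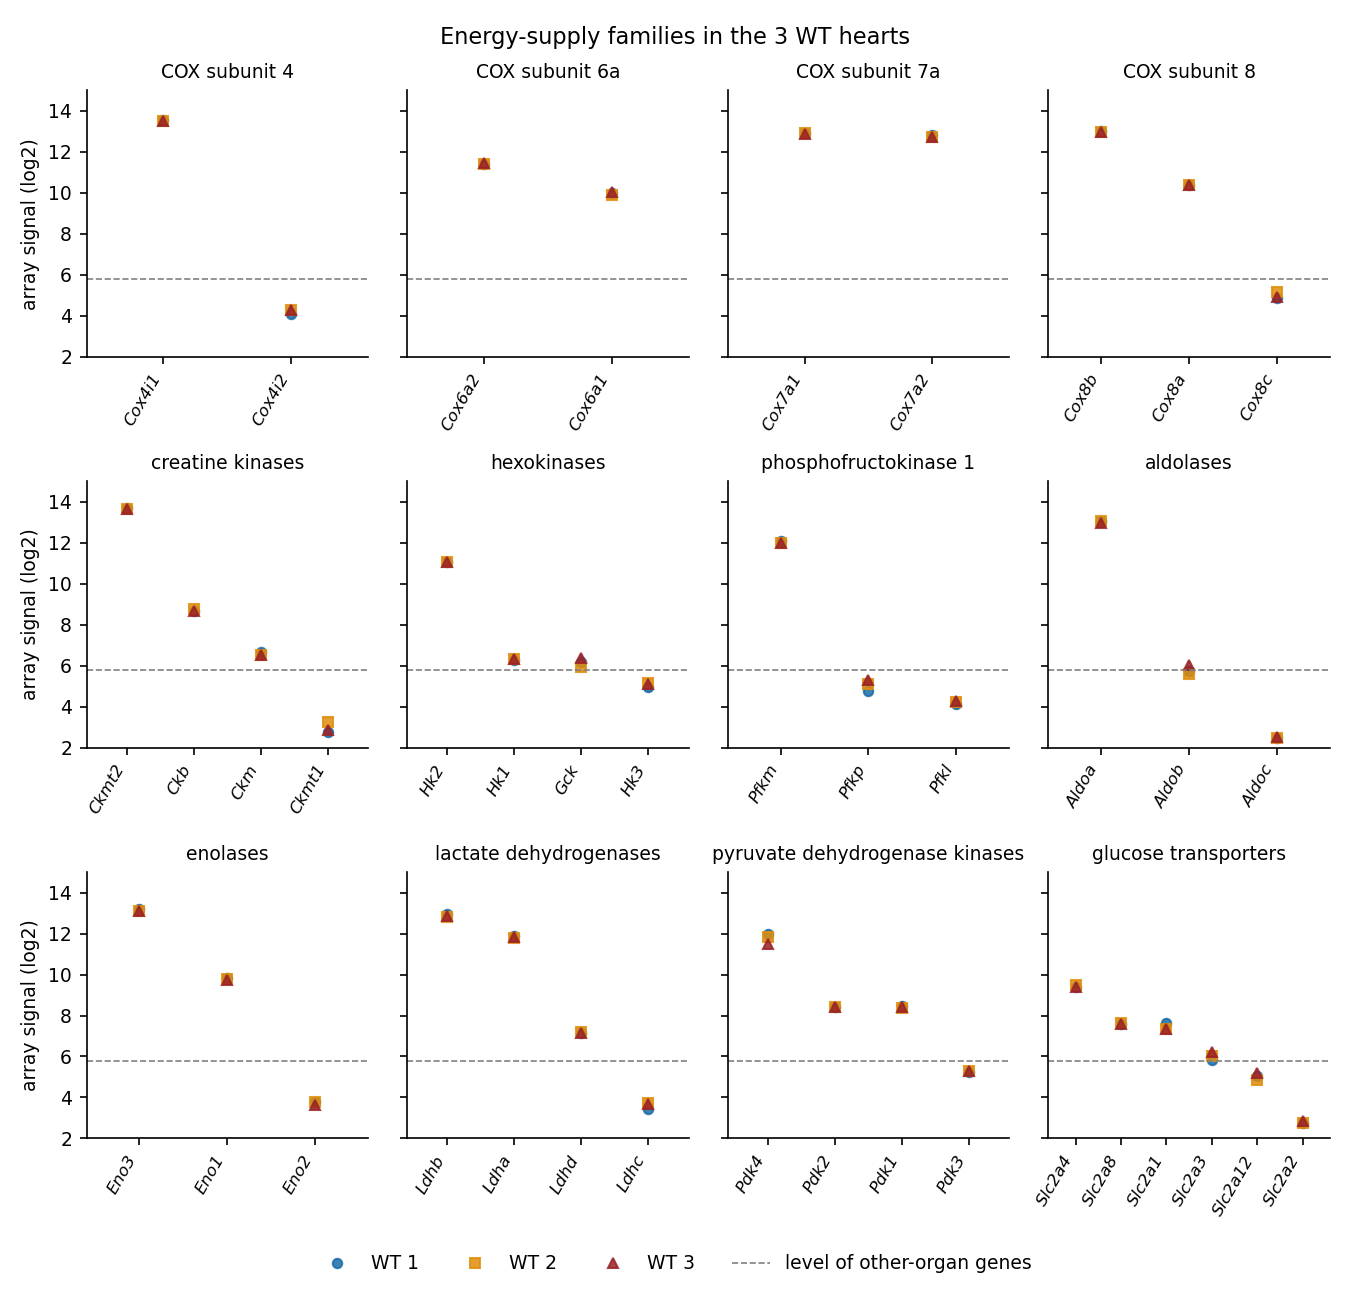
Array signal (log2) of every measured member of 12 energy-supply families in the 3 WT hearts, 1 symbol per heart, with the background level as a dashed line. The hearts lie on top of each other for most members, and Pfkm, Aldoa and Cox4i1 are far above their relatives. Only probe sets listed for 1 gene are drawn.

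Taken as lists, the energy pathways had most of their members among the brightest probe sets. The brightest 5% of the array, 2251 probe sets, held 24 of 33 measured respiratory chain genes, 12 of 18 citrate cycle genes, 16 of 20 fatty acid oxidation genes and 11 of 16 glycolysis genes. Median signals were 12.57, 10.96, 10.83 and 11.25 in the same order. Not all members were bright: Sdha (3.37, 3.22 and 3.36), Cox5b (2.71 to 2.85), Mdh1 (2.93 to 2.97), Acadl (3.23 to 3.50) and Etfdh (3.05 to 3.42), all of housekeeping or mitochondrial pathways whose partners were bright, were read at background by their listed probe sets. Of 32 listed cytosolic ribosomal proteins 21 had a probe set of their own, and 14 of these were in the brightest 5%.

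Lipid handling had 28 measured members and 19 above background (36.6% of all probe sets were). Plin5, the perilipin of oxidative tissue that coats lipid droplets, had 10.15, 9.84 and 9.93 and overlapped Plin4 (9.92 ± 0.09). Acsl1, which activates long-chain fatty acids, had 10.07, 9.92 and 9.80, and Acacb, whose product malonyl-CoA restrains their import, had 9.04, 9.02 and 9.05 before Acaca at 6.56 ± 0.14. Fatty acid-binding proteins were led by Fabp5 (9.03 ± 0.08) and Fabp4 (8.27 ± 0.13), with the heart form Fabp3 at 5.80, 5.68 and 5.80, just below background. The probe set shared by Chkb and Cpt1b, the muscle carnitine palmitoyltransferase, had 10.89, 10.87 and 10.80, and Cpt1a, the liver form, had 8.01, 7.92 and 7.82. Among their regulators Ppara had 7.53, 7.33 and 7.78, Esrrg (8.94 ± 0.03) stood before Esrra (8.70 ± 0.06), and Ppargc1a, the coactivator that drives mitochondrial genes, had 9.28 and 9.23 in WT 1 and WT 2 and 10.32 in WT 3.

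Hormones, receptors and transcription factors were mostly dimmer. Nppb, brain natriuretic peptide, had 11.96, 12.26 and 12.03 behind Nppa, and Nppc was at background. Adrb1, the main beta-adrenergic receptor of heart muscle, had 7.58, 7.53 and 7.52, with Adrb3 at background, and the alpha-1 and muscarinic receptors measured were at background as well. Adcy6 (9.71, 9.76 and 9.93) led the adenylyl cyclases before Adcy5 (7.34, 7.28 and 7.24), both known as the cardiac forms. Hand2 had 9.61, 9.38 and 9.88 and Hand1 was at background, Mef2d (9.52 ± 0.02) stood before Mef2c (7.62 ± 0.12), Gata6 (8.09 ± 0.07) before Gata4 (7.23, 7.02 and 6.76), and Tbx20 (7.70, 7.72 and 7.52) before Tbx3 (5.98, 6.27 and 6.94). Of 25 signalling members and 21 regulators measured, 12 and 10 were above background (36.6% of all probe sets were).

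The matrix and filament families had 12 of 24 members above background (36.6% of all probe sets were). Col4a1 (10.84, 10.68 and 10.53) and Col4a2 (10.40, 10.25 and 10.23), the chains of basement membrane collagen, did not overlap. The fibrillar collagens Col5a1 (7.42, 7.44 and 7.57) and Col3a1 (7.39, 7.63 and 7.40) had the same mean to 2 decimals, so this family had no leader beyond its spread. Des, the intermediate filament of muscle (11.33, 11.47 and 11.36), likewise overlapped Vim of mesenchymal cells (11.12, 11.42 and 11.35). Over all 68 families, 63 had a leader above background, 63 had a leader that did not overlap the next member, and 16 had exactly 1 member above background. Of 197 pairs of neighbours in these orders 22 overlapped, 10 of them among the 88 pairs with both members above background.

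Markers of other cell types were read beside those of muscle cells. Over all probe sets 36.6% were above background. In whole tissue, fewer cells of a type and less RNA per cell cannot be told apart. Of 15 ventricular muscle markers 12 were above background by their own probe sets, with Ttn, Ryr2 and Fabp3 below it, of which Ttn was above it by its shared probe set. Endothelial markers were above background in 11 of 12 cases, led by Esam (9.22, 9.05 and 9.18), Kdr (9.28, 8.96 and 8.89) and Eng (8.98, 9.09 and 8.95), with Cdh5 below. Fibroblast markers were in 9 of 12, led by the matrix proteins Dcn (12.74, 12.83 and 12.73), Lum (10.89, 11.02 and 10.88) and Dpt. Pdgfra, Col1a2 and Gsn were below background. Smooth muscle and pericyte markers were above background in 9 of 12, led by Abcc9, Rgs5 and Pdgfrb, with Myocd, Mylk and Acta2 below. Macrophage markers were above background in 9 of 11, led by Lyz2 (10.35, 10.37 and 10.44), Csf1r (10.32, 10.32 and 10.34) and C1qa. Fcgr1 and Cx3cr1 were below it.

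Markers of cells that a heart should hold little of were mostly dim by their own probe sets. Over all probe sets 36.6% were above background, and the erythroid, platelet, Schwann cell and conduction counts below lay near that share. None of 11 T and B lymphocyte genes, 8 thymus genes or 8 lung and airway genes exceeded background, and the brightest, Ighm, had 5.49, 5.78 and 5.74. Of 14 skeletal muscle markers only Acta1 and Mybpc2 (7.85, 7.75 and 7.61) did. Erythroid genes were above background in 3 of 8 cases, among them Alas2 (8.14, 7.96 and 8.09) and Hbb-b2, and the shared probe sets of the globins were among the brightest of the array, with 13.76, 13.70 and 13.84 for Hba-a1/Hba-a2 and 13.68, 13.60 and 13.72 for the adult beta globins. Platelet and neutrophil markers were above background in 3 of 10 cases, led by Pf4 (8.37, 8.61 and 8.49), and Schwann cell and neuron markers in 3 of 10, led by Dbh (6.75, 6.88 and 6.78). Conduction system markers were above background in 2 of 7 cases, Irx3 (8.63, 8.32 and 8.12) and Tbx3. Cell cycle genes were above background in 1 of 14 cases, Pcna (9.90, 9.89 and 9.91), with Mki67, Top2a and the cyclins below.

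The 3 hearts were close to each other. The median SD of the probe sets above background was 0.0729 on the log2 scale, the 90th percentile was 0.168 and the 99th 0.357, and 33.8% had a range under 0.1. The labels call the samples mice, so the spread holds the animal, the dissection and the array together. The 10 steadiest named genes in the top decile of signal were Polr2m, Clptm1l, Ybx3, Myoz2, Eif4ebp1, Spop, Eif4a2, Rps15a, Flnc and Fam126a. Myoz2, the Z-disc protein calsarcin, was the brightest of them with 12.90, 12.89 and 12.90, and Eif4a2, a translation initiation helicase, had 12.04, 12.05 and 12.05.

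**Figure D3:**
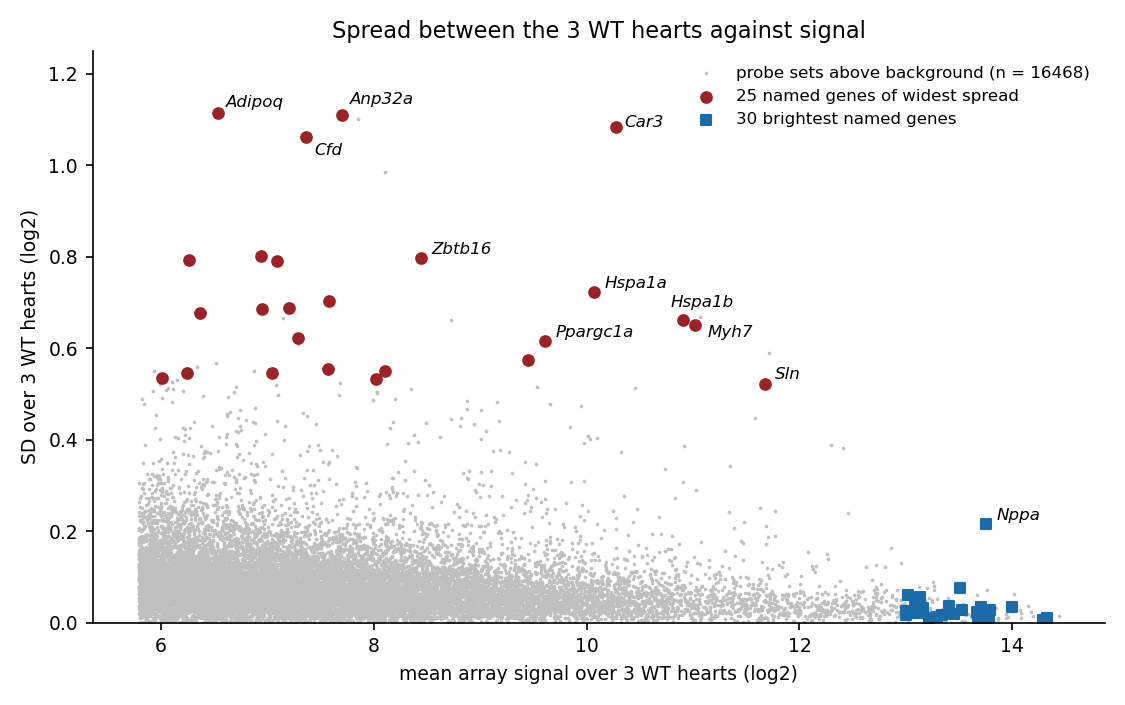
SD over the 3 WT hearts against mean signal, both on the log2 scale, for the 16468 probe sets above background (grey), the 30 brightest named genes (blue squares) and the 25 named genes of widest spread (red). The brightest genes lie near the bottom with Nppa apart at 0.22, and Adipoq, Anp32a, Car3 and Cfd lie above 1.

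A range of 1 or more on the log2 scale, a doubling between the lowest and the highest heart, was found for 38 of the 16468 probe sets above background (0.231%). Their number was 25 without WT 1, 24 without WT 2 and 7 without WT 3; 2 hearts give narrower ranges than 3 by construction. Of the 38, 25 have 1 symbol, and their highest value was in WT 3 for 18, in WT 1 for 4 and in WT 2 for 3. Background was judged by the mean of the same 3 hearts, so a gene near it can pass through its highest heart. Adipoq (5.63), Homer1 (5.75) and Cnn1 (5.67) in WT 1, and Plxna2 (5.59) in WT 2, lay below 5.79. All of these were highest in WT 3, so their ranges start at background. Over all probe sets above background the highest value was in WT 1 for 52.1%, in WT 2 for 24.4% and in WT 3 for 23.5%. The lowest was in WT 1 for 23.5%, in WT 2 for 33.5% and in WT 3 for 43%. The 18S ribosomal RNA control probe set for the 3′ end had 10.82, 11.18 and 11.58, highest in WT 3, and its part in the wide genes was not tested.

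The widest named genes were led by genes of fat cells. Adipoq, the hormone adiponectin, had 5.63, 6.20 and 7.78 in WT 1, WT 2 and WT 3, a range of 2.15. Car3, a carbonic anhydrase abundant in fat and slow muscle, had 9.23, 10.20 and 11.39 (range 2.16). Cfd, the fat-cell protease adipsin, had 6.54, 6.98 and 8.56 (range 2.02). All 3 were highest in WT 3 and lowest in WT 1. The other white adipocyte markers did not all follow. Of 8 above background 4 were highest in WT 3 and 4 in WT 1, or 5 and 3 after quantile normalization of the arrays. Over all probe sets above background, 23.5% were highest in WT 3 and 52.1% in WT 1, or 31.63% and 36.15% after that normalization. Higher in WT 1 than in WT 3 were Fabp4 (8.41, 8.17 and 8.23), Cd36 (10.72, 10.51 and 10.47) and Pparg (6.36, 6.08 and 6.23). Lpl had 12.95, 13.01 and 13.03, and Retn, Cidec and Lep were at background. The summed linear signal of the 8 was 11425, 12020 and 14101, and without Car3, which carries most of the difference, it was 10823, 10845 and 11409. Ucp1, the uncoupling protein of brown fat, had 3.53, 5.29 and 6.27 with a mean below background. Of 7 measured brown fat markers 3 were above background (36.6% of all probe sets were), namely Cox8b, Ppargc1a and Cidea. Of these 3, 2 were highest in WT 3 and 1 in WT 1. The brown fat markers Dio2, Elovl3 and Otop1 were at background. The part of fat cells in the other wide genes was not tested.

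Several other wide genes were high in WT 3 alone. Zbtb16, a zinc finger repressor, had 8.06, 7.91 and 9.36. Fkbp5, a co-chaperone of steroid receptors, had 7.25, 7.11 and 8.39. Per2, a repressor of the circadian clock, had 7.34, 7.17 and 8.21. With Ppargc1a these genes had WT 1 and WT 2 close together and WT 3 above both. Homer1, a scaffold of receptors and channels, had 5.75, 5.86 and 7.17, Snap23, a membrane fusion protein, had 6.53, 6.57 and 7.74, and Enah, an actin regulator, had 6.75, 6.86 and 7.99. Cyp2e1 (6.26, 6.75 and 7.82), a cytochrome P450, and Cdo1 (5.80, 6.18 and 7.11), which breaks down cysteine, ran as the fat genes did. Fam107a (7.05, 6.33 and 7.91), Plxna2 (5.82, 5.59 and 6.61) and Cnn1, calponin of smooth muscle (5.67, 6.31 and 6.76), were highest in WT 3 as well.

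A few of the 25 genes of largest SD ran otherwise. Anp32a, a nuclear phosphoprotein, had 8.98 in WT 1 and 7.06 in both other hearts. Rrad, a small GTPase that restrains L-type calcium channels, had 9.84, 9.72 and 8.79, lowest in WT 3, as was the long non-coding RNA Lncpint (7.52, 7.18 and 6.45). Rnf19a, a ubiquitin ligase, had 7.70, 6.57 and 7.59, and Ddit4, an inhibitor of mTOR signalling, had 8.30, 7.48 and 8.53, both lowest in WT 2. Atf3, a stress-induced transcription factor, had 7.65, 8.63 and 7.77, and Myh7 was likewise high in WT 2 alone. The 25 genes end with Sln at an SD of 0.523, and the next, Shroom3, had 0.519.

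**Figure D4:**
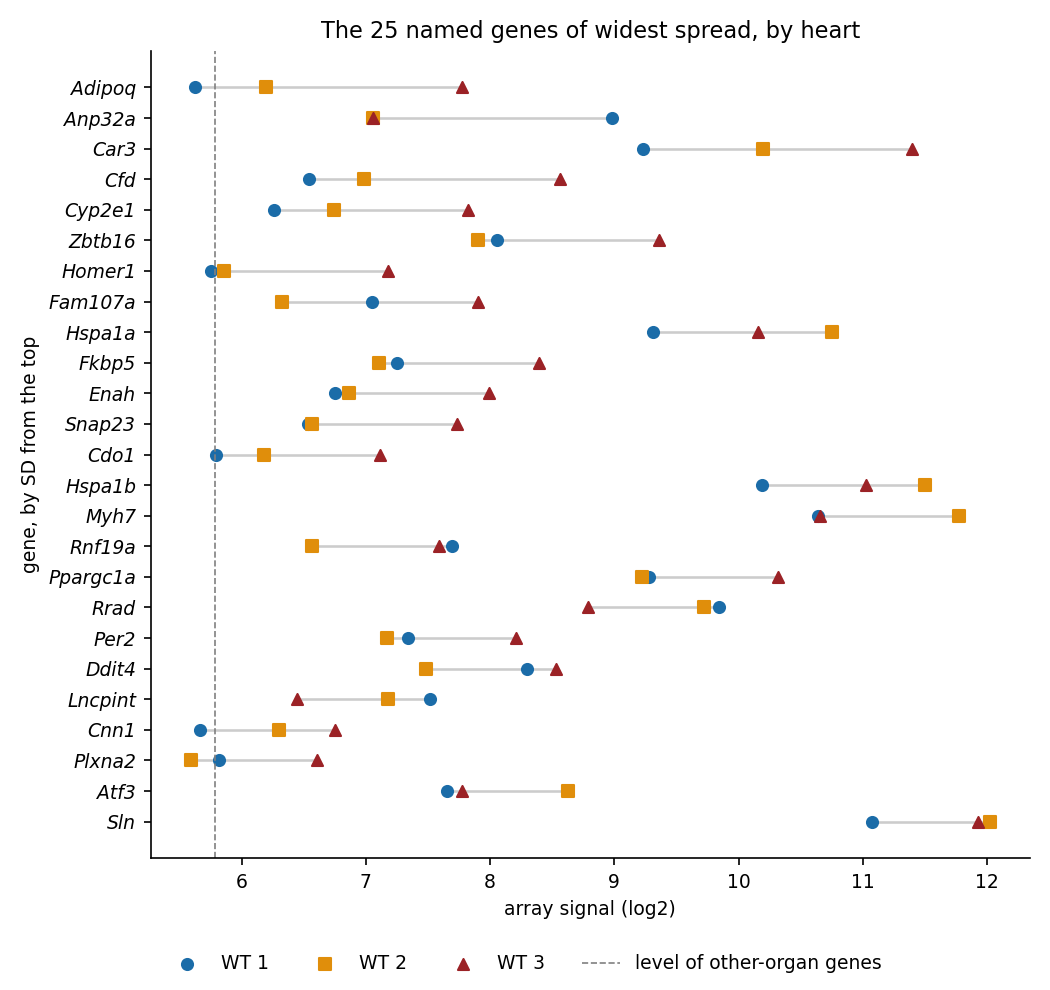
Array signal (log2) in each WT heart for the 25 named genes of widest spread, ordered by SD from the top, with the background level as a dashed line. WT 3 (triangle) is the highest heart for 16 of the 25, WT 2 (square) for 5 and WT 1 (circle) for 4.

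Read as lists, the atrial genes separated the hearts in 1 direction. Of 9 atrial markers 7 were above background, and all 7 were highest in WT 2 and lowest in WT 1, as deposited and under each of 3 other scalings of the arrays. As deposited, 24.4% of all probe sets above background were highest in WT 2 and 23.5% were lowest in WT 1. Nppa, Myl4, Myl7, Sln and Mybphl have been given above, Dkk3, a secreted Wnt modulator, had 8.88, 9.62 and 9.31, and Stard10, a lipid transfer protein, had 8.73, 9.34 and 9.24. Their median difference from the 3-heart mean was -0.44 in WT 1, 0.24 in WT 2 and 0.21 in WT 3. Tbx5 and Bmp10 were at background. The summed linear signal of the 7 was 22766, 33992 and 32613. The 12 ventricular markers above background were highest in WT 1 for 6, in WT 2 for 4 and in WT 3 for 2 (3, 6 and 3 at a common level above background). Over all probe sets above background these shares were 52.1%, 24.4% and 23.5% as deposited, and 35.12%, 29.85% and 35.04% at the common level. The summed linear signal of the 12 markers was 90007, 89304 and 88728. In the fetal and hypertrophy list, 6 of 8 genes above background were highest in WT 2 (24.4% of all probe sets above background were). Among them were Nppa, Nppb, Myh7 and Ankrd1 (13.49, 13.59 and 13.44), and the part of atrial muscle in this count was not tested. Of 9 mesothelial and epicardial markers 3 were above background, near the 36.6% of all probe sets. Upk3b (6.29, 7.07 and 6.47) and Upk1b (6.16, 6.85 and 6.24), surface proteins of the mesothelium, were highest in WT 2, and the epicardial factor Wt1 (5.72, 5.83 and 5.83) was highest in WT 3 by less than 0.01.

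**Figure D5:**
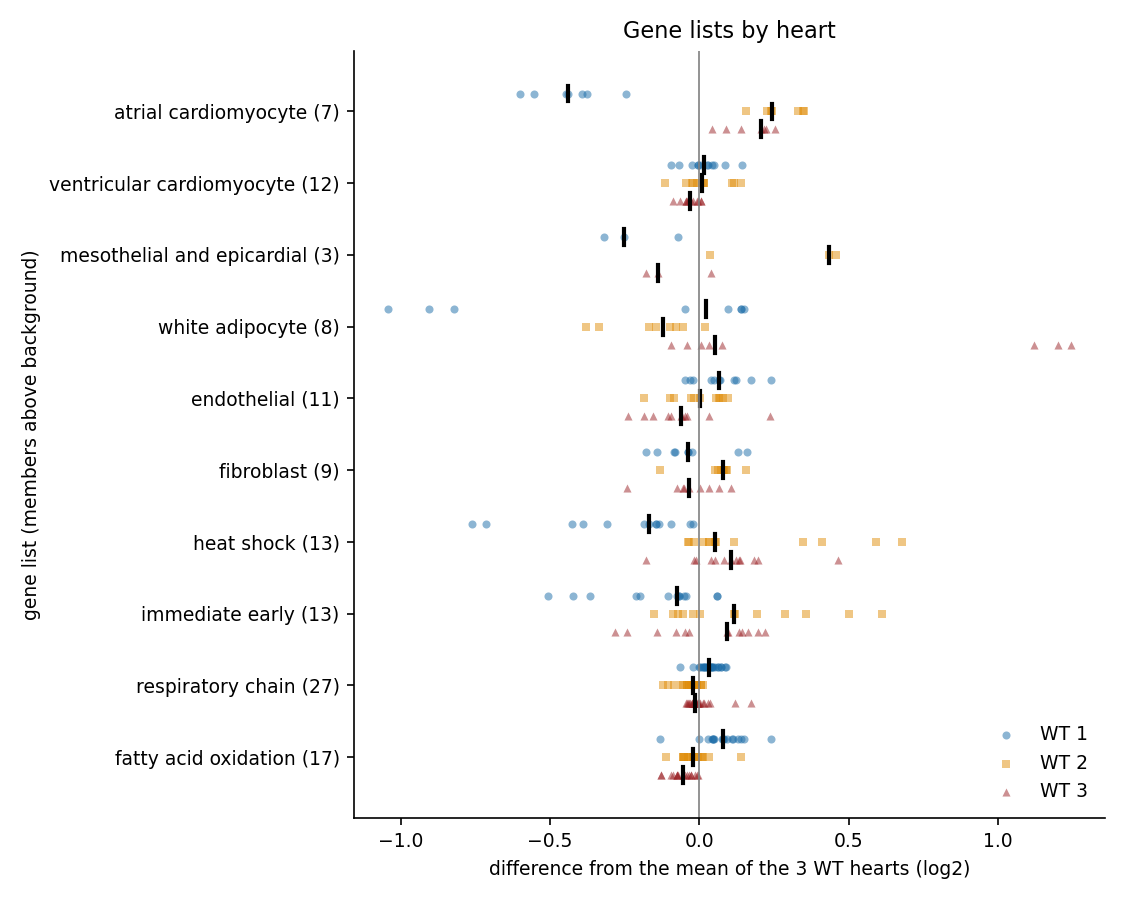
Difference of each list member from its own mean over the 3 WT hearts (log2), for members above background, with 1 row of points per heart and the median as a black bar. Atrial and heat shock genes are low in WT 1, 3 white adipocyte genes are far apart from the other 5, and the respiratory chain list varies little.

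Heat shock genes, whose products fold proteins under stress, were low in the same heart. All 13 were above background (36.6% of all probe sets were), 12 were lowest in WT 1, 6 were highest in WT 2 and 7 in WT 3. Of all probe sets above background, 23.5% were lowest in WT 1, 24.4% were highest in WT 2 and 23.5% in WT 3. With the arrays set to a common median 10 of 13 were lowest in WT 1, and with the other 2 scalings all 13. Hspa1b, an inducible heat shock protein, had 10.19, 11.50 and 11.03, and its neighbour Hspa1a had 9.31, 10.75 and 10.15. Both genes are near-identical, so their probe sets may read the same transcripts. Dnajb1, a partner of these chaperones, had 9.65, 10.45 and 10.02, Hsph1 had 8.30, 8.69 and 9.19, and Hsp90aa1 had 10.52, 10.94 and 11.02. Hspa8, the constitutive form, had 7.27, 7.79 and 7.26, and the mitochondrial Hspd1 (11.65, 11.66 and 11.73) and Hspe1 (9.49, 9.54 and 9.50) barely differed. Immediate early genes respond within minutes to handling and stress. Of 13 above background, 7 were highest in WT 2, 5 in WT 3 and 1 in WT 1. The shares over all probe sets above background were 24.4%, 23.5% and 52.1% in that order. Fos had 8.46, 9.38 and 8.80, and Egr1 had 8.67, 9.46 and 9.40.

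The motif GAANNTTC, a pair of inverted heat shock units that is its own reverse complement, was searched in the same RefSeq promoters, a choice made after these values were seen. It occurred in 7 of the 10 promoters found for the heat shock list and in 9.04% of all 27025 genes with one. The promoters of Hspa1a and Hspa1b differed at 4 of 300 bases. Their stretches around the match, in capitals and beginning 104 bases before the annotated start, are shown because these are the heat shock genes of widest spread. They lie at chr17:34972222-34972291 for Hspa1a and at chr17:34959304-34959373 for Hspa1b, both on the minus strand. The windows shown are identical, and no match was found for Dnajb1, Dnajb4 or Hspa4l.
Hspa1a: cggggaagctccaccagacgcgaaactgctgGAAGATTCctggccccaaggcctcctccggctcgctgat
Hspa1b: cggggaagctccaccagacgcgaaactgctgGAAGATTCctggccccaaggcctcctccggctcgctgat

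Metabolic lists leaned the other way by small amounts. Fatty acid oxidation genes were highest in WT 1 for 15 of 17 above background, where WT 1 holds the highest value of 52.1% of all probe sets above background as deposited, with a median difference from the 3-heart mean of 0.0793 in WT 1, -0.0222 in WT 2 and -0.0542 in WT 3. The count was 13 of 17 when each array was set to a common level above background, where that share is 35.1%. Acaa2, the thiolase of the final step, was the widest with 11.63, 11.28 and 11.26. Genes of the fasting and PPAR alpha response were highest in WT 1 for 9 of 11, as deposited and at the common level, with Pdk4 given above, Angptl4, an inhibitor of lipoprotein lipase, at 6.71, 6.24 and 6.17 and Ucp3 at 7.24, 6.88 and 6.82. Respiratory chain genes were highest in WT 1 for 22 of 27 as deposited, but for 13 of 27 at the common level, so that this count depends on the scaling.

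Whether the same genes vary in other hearts was read within each of the other groups, without comparing levels. Of the 25 named WT genes of widest spread, 15 were in the top decile of SD within the 3 GlycoLo hearts and 17 within the 3 GlycoHi hearts, where 10% of the probe sets above background are in each. Both groups had 10 of them in the top decile and 3 were in neither top decile. Adipoq had an SD of 1.11 in WT, 0.849 in GlycoLo and 0.631 in GlycoHi, and Car3 had 1.08, 0.745 and 0.279. Hspa1b had 0.662 in WT, 0.215 in GlycoLo and 1.56 in GlycoHi, the widest of any probe set above background in that group. Myh7 had 0.651 in WT, 0.0505 in GlycoLo and 0.0740 in GlycoHi, and Rnf19a had 0.622, 0.0512 and 0.0879. Myh7 was at percentile 31.5 of SD within GlycoLo and 49.3 within GlycoHi among all probe sets above background. Among probe sets of like level it was at percentile 50.8 and 72.3. Adipoq was above percentile 99.9 in both groups among all probe sets above background.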

How the data were processed

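Whole hearts of 9 mice were measured on Affymetrix arrays from biotin-labelled cRNA, per the labels. The deposited values are log2 signals from robust multiarray average (RMA), per the submitters' processing notes, which also name limma. How that step corrected background and scaled the arrays is not given in the sources used. Both deposited tables hold the same log2 values. Left out were 64 control probe sets, and 876 probe sets with several symbols and 24 with a spreadsheet date were not named as genes. The number of arrays, 3, limits the precision, and the brightest probe sets may be compressed by saturation.

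With 1 group there is no test: means, SDs, ranges, ranks and counts were computed with pandas 2.3.3 and NumPy 2.4.6 in Python 3.11.15, and figures were drawn with matplotlib 3.10.9. Simulated hearts with 1 SD common to all probe sets were run through a separate copy of the mean, rank and range steps. The shifts added there exceeded that SD by far, so the run does not check the counts given here. Named were the 30 brightest and 25 widest probe sets with 1 symbol, the 10 steadiest in the top decile, the members of 68 families, and from 32 gene lists the 3 brightest, the widest and defining markers at background, with the sex-linked genes as a check; some members of these are not reported here. Of 273 family genes 265 were measured; a symbol was matched directly or as a synonym that is no other gene's symbol. Families and lists were chosen with earlier results of these data known. Promoters were found in RefSeq for 13970 named genes. Alternatives were other array scalings, averages, thresholds and filters, and each heart left out in turn.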

Additional observations from a re-analysis of the deposited data

How the results depend on the processing

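Of 37 alternative settings of counts and levels, which have no direction, 28 stayed within 1.5 times of the value given or within its spread, and 9 moved it. The count above background was 32445 at the median of the other-organ genes and 10571 at their highest gene. The count of probe sets of wide spread was 258 at a range of 1.5-fold, 86 with no filter on dim probe sets, 60 above the array median, and 7 to 25 with 1 heart left out. Of the 30 brightest named genes 8 were among the brightest 30 when all non-control probe sets were ranked, since most bright probe sets have no symbol or several. Family leaders were the same in 66 to 68 of 68 families, with Plin4 ahead of Plin5 without WT 1 and Col3a1 ahead of Col5a1 without WT 1, without WT 3 and by the mean of linear values. With each member read by the brightest of its own probe set and those it shares with other genes, an alternative chosen after seeing the data, 66 of 68 leaders were the same, and among the exceptions Hk1 stood in front of Hk2. For each list the heart was taken whose share of highest members most exceeds its share over all probe sets above background. That heart was the same for 23 of 25 lists under each of 3 other scalings. The exceptions were the ventricular list (common median and quantile normalization), the sex-linked genes (all 3) and the interferon list (common level above background). Other probe sets from a reference table were planned as an alternative and not run, because no reference table pairing probe sets with genes was used here. No protein comparison was made. No paired analysis was possible because only 1 group is described and no result comes from a test.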

Other observations

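Clock genes were above background in 11 of 16 cases in the WT hearts (36.6% of all probe sets were). Dbp, a rhythmic transcription factor, was the brightest with 10.75, 10.47 and 10.46 in WT 1, WT 2 and WT 3, before Per1 (8.37, 8.09 and 8.31) and Clock (8.11, 7.90 and 7.89), while Arntl, the partner of Clock, was read at background (5.27, 5.11 and 4.83). Apart from Per2 no clock gene above background had a range of 1 or more.

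Of the hypoxia and metal response genes 10 of 11 were above background (36.6% of all probe sets were). The metallothioneins Mt1 (11.62, 11.70 and 11.98) and Mt2 (8.76, 8.88 and 9.33) were both highest in WT 3, and Bnip3, a mitophagy receptor, had 11.47, 11.36 and 11.26. Ctgf, a matrix growth factor of the fetal and hypertrophy list, had 10.48 in WT 1 and 11.04 and 11.22 in WT 2 and WT 3. Interferon response genes were above background in 7 of 13 cases, led by Rtp4 (7.97, 8.03 and 7.77) and Ifit2 (7.22, 7.30 and 7.19), with Irf7 and Ifit1 below.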
